A study of Mus musculus with 59 samples.

Results

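Complex I of the respiratory chain, NADH:ubiquinone oxidoreductase, was followed at the transcript level in mouse brain through its nuclear-encoded subunits and the factors that help to assemble it. The genes were all rows of the deposited raw count table whose symbol is a Nduf subunit symbol with a number, Ndufab1, or an Ndufaf symbol with a number, leaving out symbols that end in a pseudogene mark. The rule gave 46 of 57180 gene rows, made up of 38 subunits and 8 assembly factors, and all of them passed the filter on low counts in cortex, in hippocampus and in the paired comparison of the tissues. No row had the symbol Ndufb1, so this subunit was not analysed here.

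Complex I oxidises NADH in the mitochondrial matrix, passes the electrons to ubiquinone and moves protons across the inner membrane. A matrix arm holds the flavin and the iron-sulfur clusters, and a membrane arm holds the proton channels, whose core subunits are encoded by mitochondrial DNA. Around this catalytic core lie accessory subunits, and assembly factors bind the modules while they are built and then leave. Neurons depend heavily on oxidative phosphorylation, and loss of single subunits such as Ndufs4 causes a severe encephalopathy in mice and humans.

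Poly(A) RNA of cortex and hippocampus was sequenced from 30 male mice in 59 libraries, and 29 animals gave both tissues. The labels name 4 genotypes. Wild type is Mrpl40 +/+,Slc25a1 +/+ (9 cortex and 8 hippocampus libraries), and the other groups have 7 libraries in each tissue. Mice called Slc25a1 het are Mrpl40 +/+,Slc25a1 -/+, those called Mrpl40 het are Mrpl40 -/+,Slc25a1 +/+, and double het mice are Mrpl40 -/+,Slc25a1 -/+. The product of Slc25a1 carries citrate across the inner mitochondrial membrane, Mrpl40 belongs to the ribosome of mitochondria, and both genes lie in the region deleted in 22q11.2 microdeletion syndrome. The labels give neither the kind of mutant allele nor strain or age, and so do not say whether the alleles still make a counted transcript. Biological replicates are separate animals. Library totals ranged from 21443017 to 32120906 counts.

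The targeted genes were checked first, in counts scaled to library size (CPM). In cortex, Slc25a1 stood at 12.1 to 26.3 CPM (median 24.0) in libraries labelled wild type and at 11.1 to 24.3 CPM (median 12.6) in those labelled Slc25a1 het. It stood at 21.8 to 24.7 CPM in Mrpl40 het and at 10.8 to 21.9 CPM (median 11.6) in libraries labelled double het. In 6 animals the level went against the label in both tissues: wild type replicates 6 and 7 were low, and Slc25a1 het replicates 3 and 4 and double het replicates 5 and 6 were high. Genotype names below stand for the labels, and fits were repeated without these 6 animals. In hippocampus Slc25a1 stood at 11.2 to 26.2 CPM in wild type (median 24.6), 10.8 to 24.0 in Slc25a1 het (median 11.8) and 11.3 to 27.3 in double het (median 12.4), while Mrpl40 het libraries held 23.2 to 25.5. Its differences from wild type, -0.53 ± 0.20 in Slc25a1 het and -0.61 ± 0.20 in double het in cortex, missed the edgeR threshold (adjusted p = 1 and 0.247). Mrpl40 did not separate the groups, with 16.0 to 20.7 CPM in wild-type cortex and 15.4 to 19.3 CPM in Mrpl40 het cortex (-0.043, adjusted p = 0.915, edgeR), and with 13.4 to 17.2 CPM and 14.0 to 17.1 CPM in hippocampus. Tissue labels matched their markers, the summed level of 6 hippocampus markers (Prox1, C1ql2, Wfs1, Fibcd1, Tdo2 and Iyd) being 424 to 835 CPM in hippocampus and 71.1 to 152 CPM in cortex. In 4 hippocampus libraries (double het 6, Mrpl40 het 5, Slc25a1 het 3 and wild type 8) marker genes of other tissue stood apart, and fits without them were run too. All 7 mitochondrially encoded subunit rows (mt-Nd1 to mt-Nd6 and mt-Nd4l) held 0 counts in all 59 libraries, so the counts cover only the nuclear side of the complex. A row at 0 in every library gives no level for these transcripts.

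Several members have near-identical copies elsewhere in the genome, and the sequences show why their counts are uncertain. For Ndufa12, an accessory subunit of the matrix arm, bases 46 to 135 of its coding sequence are shown beside the matching 90 bases of its copy Gm15920. They differ at 1 base, shown in capitals. The sequences are from the GENCODE transcripts, and the stretches here and below were picked because they differ at 1 base.
Ndufa12: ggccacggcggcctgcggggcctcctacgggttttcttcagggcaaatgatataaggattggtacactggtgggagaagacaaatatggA
Gm15920: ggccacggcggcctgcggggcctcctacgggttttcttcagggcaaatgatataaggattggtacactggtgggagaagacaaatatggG
For Ndufab1, the mitochondrial acyl carrier protein that sits in both arms of the complex, bases 12 to 101 of its coding sequence are shown. They differ at 1 base, in capitals, from the matching stretch of Ndufab1-ps.
Ndufab1: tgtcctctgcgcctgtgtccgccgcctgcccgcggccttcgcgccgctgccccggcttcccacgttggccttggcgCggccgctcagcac
Ndufab1-ps: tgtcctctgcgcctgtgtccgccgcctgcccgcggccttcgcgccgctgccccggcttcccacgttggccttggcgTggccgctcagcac
A read that falls between such differences fits both genes. Of the counts on member and copies together, Ndufa12 held 46.8%, Ndufab1 47.2% (with Ndufab1-ps and Gm4459), Ndufb4 30.8% (with Gm3244), Ndufs5 57% (with BC002163) and Ndufs3 86.8% (with Gm12251). Ndufs6 (Gm6415) and Ndufb11 (Gm6444) held 93.9% and 96.5%. For Ndufb3 and Ndufb9 the copies had means of 0.2 and 0.6 counts. The labels do not say how reads that match several genes were counted, so the split between a member and its copy, and the level of Ndufa12, Ndufab1, Ndufb4 and Ndufs5, is uncertain.

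The promoters were searched for motifs, which the rule did not use. RefSeq windows from 250 bases before to 50 bases after the start (GRCm38.p6) were at hand for 33 of the 38 subunits and 7 of the 8 assembly factors. NRF1, a transcription factor known to act on many nuclear genes of the respiratory chain, binds a palindrome, here searched on both strands as GCGC, then any base, then TGCGC. It was present for 7 of 33 subunits (21.2%) and 2 of 7 assembly factors (28.6%), beside 5.19% of all 27025 genes in the table. A gene was counted if any of its windows held the motif. The 9 windows are shown 5′ to 3′ on the gene's strand, 30 bases each, with the motif in capitals.
Ndufa11 (chr17:56717692-56717721, + strand): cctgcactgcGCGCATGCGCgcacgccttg
Ndufa5 (chr6:24527697-24527726, - strand): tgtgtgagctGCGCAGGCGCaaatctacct
Ndufa6 (chr15:82354249-82354278, - strand): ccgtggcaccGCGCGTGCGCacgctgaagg
Ndufa8 (chr2:36049349-36049378, - strand): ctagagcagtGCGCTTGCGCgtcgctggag
Ndufaf4 (chr4:24897960-24897989, + strand): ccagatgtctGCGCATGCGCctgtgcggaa
Ndufaf5 (chr2:140170652-140170681, + strand): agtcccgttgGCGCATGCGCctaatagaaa
Ndufb4 (chr16:37654371-37654400, - strand): cctcatatccGCGCAGGCGCagatgtgcgc
Ndufs5 (chr4:123718265-123718294, - strand): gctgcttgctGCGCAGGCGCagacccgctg
Ndufs6 (chr13:73328479-73328508, - strand): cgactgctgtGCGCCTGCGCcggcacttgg
In Ndufa6 and Ndufaf5 the motif lies just after the start and in the other 7 before it. The ETS motif CCGGAAG was present for 12.1% of these subunits and 28.6% of these assembly factors, beside 9.93% of all genes. The YY1 motif AAGATGG was present for 21.2% and 14.3%, beside 7.28% of all genes. The ETS letters end and the YY1 letters begin with AAG, so 1 stretch can hold both. A match is a description of these windows and not a bound site.

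Levels can be compared between genes only per length, and were taken as CPM per kilobase of the annotated principal mRNA. They spanned a wide range among members in cortex (30 libraries). Ndufa4, once counted as a complex I subunit and now assigned to cytochrome c oxidase, was the highest at 265 ± 12.6 CPM per kb (SD, n = 30), and Ndufb10, a membrane arm subunit, followed at 121 ± 6.21. The mean ± SD ranges of Ndufa4 and Ndufb10 did not meet. The lowest were Ndufa4l2, the paralogue of Ndufa4 that is known to be induced in low oxygen, at 1.81 ± 0.306, then Ndufb4 at 4.89 ± 0.883 and Ndufb8 at 6.96 ± 0.81. The mean ± SD ranges of Ndufb4 and Ndufb8, both membrane arm subunits, did not meet. The low value of Ndufb4 stands beside the 30.8% share of its counts given above. Ndufb8 shares 134 exonic bases, 4.3% of its annotated ones, with Gm20538 on the same strand, where a read cannot be given to 1 gene. Gm20538 had a mean of 0.0 counts. The next ones up, Ndufb2 and Ndufab1, have annotated mRNA lengths of 2413 and 2447.5 bases, and their values would be higher if shorter transcripts were the ones counted.

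Assembly factors stood below most subunits. In cortex Ndufaf7, a methyltransferase of the mitochondrial matrix, was at 24.4 ± 1.18 CPM per kb, Ndufaf2 at 24.0 ± 2.16 and Ndufaf5, which hydroxylates Ndufs7, at 21.8 ± 1.3. Ndufaf7 and Ndufaf2 did not differ beyond their spread. Ndufaf3 followed at 14.5 ± 0.833 and Ndufaf1 at 13.7 ± 1.19, also within each other's spread, then Ndufaf4 at 9.74 ± 0.644 and Ndufaf8, the partner of Ndufaf5, at 9.36 ± 0.877. Ndufaf6 was the lowest at 4.6 ± 0.45. In hippocampus (29 libraries) Ndufaf7 stood at 21.1 ± 1.07, Ndufaf5 at 19.2 ± 1.52 and Ndufaf2 at 19.2 ± 1.74. The SD over libraries does not test a change between tissues, which were compared within animals below.

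**Figure D1:**
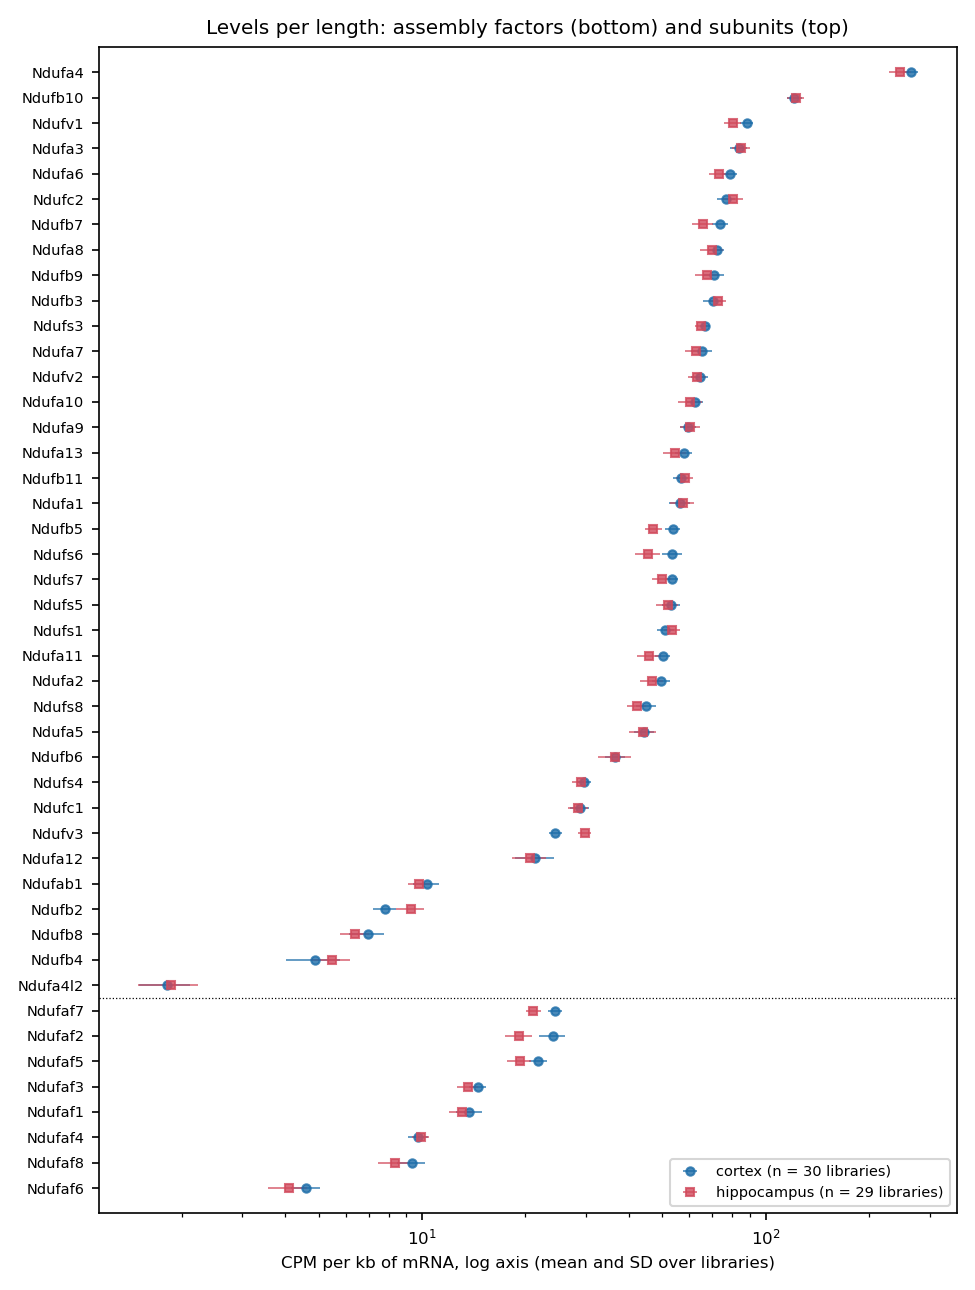
Level per length of 45 of the genes in CPM per kb of principal mRNA on a log axis, as the mean and SD over 30 cortex and 29 hippocampus libraries. Ndufa4 lies highest at 265 CPM per kb in cortex and Ndufa4l2 lowest at 1.81, and cortex and hippocampus points lie close together for most genes.

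The tissues were compared within the 29 animals, with all 4 genotypes weighted equally (edgeR quasi-likelihood test with the animal as a block). Complex I transcripts differed between hippocampus and cortex by small amounts in both directions. Of 38 subunits, 6 were higher and 19 lower in hippocampus, and of 8 assembly factors 7 were lower and none higher. Tissue differences were the rule among all genes: 16546 of 21354 genes tested were called (77.5%), 39.8% higher and 37.7% lower, so that the members' share of calls, 32 of 46, is not above the background. The median log2 difference, hippocampus minus cortex, was -0.043 over subunits and -0.16 over assembly factors, beside 0.012 over all genes. With per-library trends of length and GC content removed, 7 subunits were called higher and 12 lower, 6 assembly factors were lower, and the subunit median was -0.021 beside 0.021 over all genes. In bulk tissue, fewer cells of a type and less RNA per cell cannot be told apart.

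Levels of cell type markers also differed between the tissues in the same libraries. The summed level of 6 neuron markers (Snap25, Syt1, Rbfox3, Tubb3, Stmn2 and Map2) was 4139 to 6855 CPM in hippocampus and 6732 to 8100 CPM in cortex, and 5 of the 6 were called lower. Astrocyte markers (Gfap, Aqp4, Aldh1l1, Slc1a3, Gja1 and Aldoc) summed to 2049 to 3049 CPM in hippocampus and 1535 to 1979 CPM in cortex, with 4 called higher and 1 lower. Mean Gfap went from 59.8 CPM in cortex to 435 CPM in hippocampus, while Aldoc stood at 768 and 772 CPM and Aldh1l1 at 76.5 and 54.1 CPM. None of these 12 was at 0 in any library. Their part in the differences of complex I genes was not tested.

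Of the 7 core catalytic subunits, 5 were called lower and 1 higher. Ndufv1, which binds NADH and the flavin, had 133 to 161 CPM in cortex (median 145) and 118 to 149 CPM in hippocampus (median 134). The ranges overlapped, and the level was lower in hippocampus in 26 of 29 animals. Its log2 difference was -0.13 ± 0.018 (SE, adjusted p = 1.71e-08, edgeR). Ndufs3, Ndufs7 and Ndufs8, iron-sulfur proteins or neighbours of the ubiquinone site, were lower too, with differences of -0.039, -0.098 and -0.084. Ndufs1, the large iron-sulfur subunit next to the flavin module, was higher by 0.068 ± 0.018 (adjusted p = 0.000911, edgeR), with 121 to 151 CPM in cortex and 129 to 162 CPM in hippocampus and a higher level in 22 of 29 animals. Ndufv2, which holds an iron-sulfur cluster beside Ndufv1, did not pass the test at -0.024 but did without the 6 animals (-0.042, adjusted p = 0.0409). Most core differences moved with transcript length and GC content. With per-library trends of both removed, Ndufv1 remained lower at -0.040 (adjusted p = 0.0321), Ndufs1 missed the threshold at 0.033 (adjusted p = 0.0761), and Ndufs3, Ndufs7 and Ndufs8 lost their calls, Ndufs3 and Ndufs7 with the sign turned to 0.017 and 0.032. Ndufs3 also missed the threshold without the 4 libraries that stand apart in markers (adjusted p = 0.0584) and with no filter on low counts (adjusted p = 0.164). Its call remained with the counts of its copy added (-0.050, adjusted p = 0.00494, edgeR).

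The accessory subunits of the matrix arm held the largest rise and the largest fall among subunits. Ndufv3, a small protein of the flavin module, stood at 35.9 to 43.7 CPM in cortex (median 38.6) and at 42.7 to 52.0 CPM in hippocampus (median 46.8). The ranges met only at their edges, and all 29 animals had more Ndufv3 in hippocampus. The log2 difference was 0.28 ± 0.018 (SE, adjusted p = 2.14e-16, edgeR). Ndufs6, a zinc-binding subunit that takes its place late in the assembly of the flavin end, moved the other way, from 25.3 to 34.7 CPM in cortex (median 30.3) to 22.9 to 33.7 CPM in hippocampus (median 25.2). It was lower in 28 of 29 animals, by -0.24 ± 0.023 on the log2 scale (adjusted p = 2.2e-11, edgeR), and by -0.25 when the counts of its copy were added. Ndufs4, whose loss models Leigh syndrome, had 45.9 to 55.8 CPM in cortex and 43.1 to 58.9 CPM in hippocampus and did not pass the test (-0.035 ± 0.018, adjusted p = 0.0828). It passed at -0.048 without the 6 animals at odds with their Slc25a1 label (adjusted p = 0.0169) and with the length and GC trends removed (adjusted p = 0.0063). Of the 9 subunits of this class, 1 was called higher and 4 lower. Ndufa2, Ndufa6 and Ndufa7 were the other lower ones, at -0.096, -0.10 and -0.055, and Ndufa5, Ndufa9 and Ndufa12 did not pass. Ndufa7 missed the threshold without the 4 libraries (adjusted p = 0.0863) and with no filter (adjusted p = 0.0922).

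For the subunits with the largest rise and fall, the 250 bases before the start are shown 5′ to 3′ on the gene's strand, from the RefSeq promoter table (GRCm38.p6), with the NRF1 motif in capitals where it is present.
Ndufv3 (chr17:31519865-31520114, + strand): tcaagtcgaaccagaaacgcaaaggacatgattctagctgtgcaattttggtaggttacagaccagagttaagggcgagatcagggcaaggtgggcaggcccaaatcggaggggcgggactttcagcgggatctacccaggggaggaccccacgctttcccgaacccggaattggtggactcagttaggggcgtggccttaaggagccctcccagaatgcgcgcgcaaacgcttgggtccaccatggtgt
Ndufs6 (chr13:73328483-73328732, - strand): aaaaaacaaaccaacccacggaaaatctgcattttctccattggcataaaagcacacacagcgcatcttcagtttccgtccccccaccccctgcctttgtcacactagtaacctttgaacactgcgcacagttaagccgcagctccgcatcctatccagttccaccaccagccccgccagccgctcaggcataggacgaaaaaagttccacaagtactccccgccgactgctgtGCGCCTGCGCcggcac
The Ndufs6 window ends close to an NRF1 motif, and none of the 3 motifs searched was found in these 250 bases of Ndufv3, which says only that those letters are absent from this stretch.

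In the membrane arm, 4 of 19 accessory subunits were called higher and 8 lower. Ndufb2, a small subunit of the distal end of the arm, stood at 16.3 to 22.0 CPM in cortex (median 18.9) and at 19.5 to 26.4 CPM in hippocampus (median 22.4). It was higher in hippocampus in all 29 animals although the ranges overlapped, with a log2 difference of 0.26 ± 0.024 (adjusted p = 7.98e-12, edgeR). Ndufb4 was higher by 0.18 ± 0.058 (adjusted p = 0.00558, edgeR), but with 2.96 to 6.28 CPM in cortex and 3.52 to 6.54 CPM in hippocampus the ranges nearly coincided, and the difference was 0.079 once its copy Gm3244 was added. Ndufc2 (0.065) and Ndufb3 (0.049) rose by less. Both missed the threshold with the length and GC trends removed (adjusted p = 0.0552 and 0.633), and Ndufb3 also missed it in the DESeq2 Wald test (adjusted p = 0.0504), without the animal block (adjusted p = 0.0539) and without the 6 animals (adjusted p = 0.152). Among the falls, Ndufb5 went from 51.3 to 64.9 CPM in cortex (median 57.7) to 45.7 to 59.2 CPM in hippocampus (median 51.3). It was lower in 27 of 29 animals, by -0.19 ± 0.021 (adjusted p = 1e-09, edgeR). Ndufb7, which carries disulfide-bonded cysteines on the intermembrane space side, was lower in 25 of 29 animals, with 41.7 to 52.4 CPM in cortex and 35.0 to 50.0 CPM in hippocampus (-0.17 ± 0.021, adjusted p = 7.59e-09, edgeR). Ndufa11 and Ndufb8 were lower by -0.13 and -0.11. Ndufa11 lost its call with the length and GC trends removed (-0.030, adjusted p = 0.188), and Ndufb8 lost it without the filter on low counts (adjusted p = 0.0658) and without the 6 animals (adjusted p = 0.163). Ndufa13, also known as GRIM-19, turned from -0.078 to 0.047 with the length and GC trends removed (adjusted p = 0.0266). Ndufa8, Ndufa10 and Ndufb9 were called lower at -0.050, -0.047 and -0.069, and each lost the call under those offsets (-0.0074, -0.034 and -0.0059). Ndufa8 and Ndufa10 also lost it without the 6 animals (adjusted p = 0.0765 and 0.124) and with no filter (adjusted p = 0.0797 and 0.094), Ndufa8 without the 4 libraries (adjusted p = 0.0707) and Ndufa10 without the animal block (adjusted p = 0.0626). In the other direction, Ndufb10 (0.060, adjusted p = 0.00149), Ndufb11 (0.049, adjusted p = 0.0116) and Ndufa3 (0.044, adjusted p = 0.0221) were called higher with the length and GC trends removed, and not otherwise. Ndufs5 was called only when the counts of BC002163 were added (-0.088, adjusted p = 0.0005125, beside -0.034, adjusted p = 0.176, without them) or with the length and GC trends removed (-0.058, adjusted p = 0.00879).

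The acyl carrier Ndufab1 was lower in hippocampus at -0.068 ± 0.028 (adjusted p = 0.0279, edgeR) and missed the threshold without the 6 animals (-0.055, adjusted p = 0.106). Its call remained with the counts of its copies added (-0.070, adjusted p = 0.00194, edgeR) and with the length and GC trends removed (-0.10, adjusted p = 0.00191, edgeR). Ndufa4 fell from 128 to 154 CPM (median 139) in cortex to 117 to 156 CPM (median 129) in hippocampus, a difference of -0.11 ± 0.020 (adjusted p = 7.39e-06, edgeR) seen in 24 of 29 animals. Its paralogue Ndufa4l2 did not pass the test (0.042 ± 0.078), with 1.19 to 2.15 CPM in cortex and 1.18 to 2.44 CPM in hippocampus. The 95% interval of its difference, from -0.12 to 0.20, is wide because of its low counts.

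**Figure D2:**
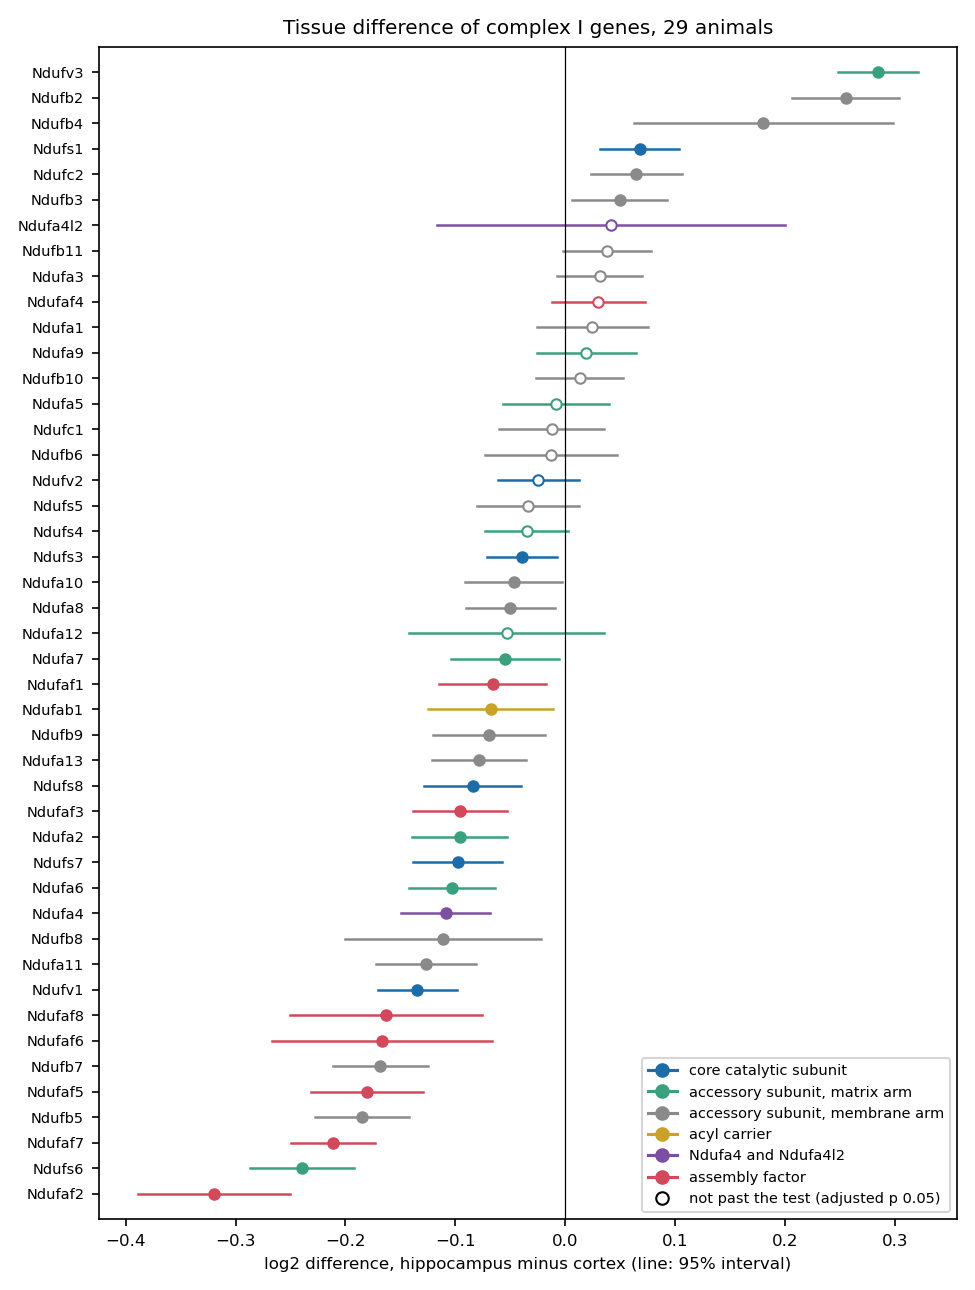
Log2 difference, hippocampus minus cortex, of 45 of the genes (point) with its 95% interval (line), coloured by class and hollow where the adjusted p of the edgeR test missed 0.05. Ndufv3 lies at the top with 0.28 and Ndufaf2 at the bottom with -0.32, and 7 of the 8 assembly factors lie to the left of zero.

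Among assembly factors every call was toward lower levels in hippocampus. Ndufaf2, a relative of Ndufa12 that holds its place on a late assembly intermediate, had the largest difference of any member. It stood at 13.2 to 19.5 CPM in cortex (median 16.1) and at 10.6 to 15.5 CPM in hippocampus (median 12.8), lower in 28 of 29 animals, by -0.32 ± 0.034 (SE, adjusted p = 2.02e-10, edgeR). Ndufaf7 was lower in all 29 animals, with 38.3 to 46.6 CPM in cortex (median 42.6) and 34.1 to 41.7 CPM in hippocampus (median 36.8), a difference of -0.21 ± 0.019 (adjusted p = 2.14e-12, edgeR). Ndufaf5 was lower in 25 of 29 animals by -0.18 ± 0.025 (adjusted p = 7.15e-08, edgeR), and its partner Ndufaf8 by -0.16 ± 0.043. Ndufaf6 was lower by -0.17 ± 0.049, Ndufaf3, which binds the ubiquinone module, by -0.096 ± 0.021, and Ndufaf1, part of the complex that builds the membrane arm, by -0.066 ± 0.024. Ndufaf3 lost its call with the length and GC trends removed (-0.0021, adjusted p = 0.926), and Ndufaf1 with no filter (adjusted p = 0.0563) and without the animal block (adjusted p = 0.0637). Ndufaf4, the partner of Ndufaf3, did not pass the test (0.030 ± 0.021), with an interval from -0.012 to 0.072. Ndufaf2 shares 65.6% of its annotated exonic bases with B230220B15Rik on the opposite strand, a gene with a mean of 1.2 counts. The library kit marks strand, and no label says whether the counting used it.

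Of 12 further genes known to help assemble complex I, 11 could be tested (Coa1 was not), and here the directions were mixed, with 5 higher and 3 lower. Dmac2, which acts on the distal membrane arm, was lower in hippocampus by -0.29 ± 0.021, while Lyrm2 was higher by 0.27 ± 0.031 and Aifm1 by 0.16 ± 0.020. Tmem126b and Ecsit, partners of Ndufaf1, were higher by 0.15 ± 0.022 and 0.075 ± 0.019, and Acad9, another partner, did not pass (-0.028 ± 0.021). Lower levels in hippocampus were therefore not shared by all assembly genes. For the nuclear subunits of complexes II to V, 10 of 45 tested were higher and 21 lower, with a median of -0.034, close to the -0.043 of the complex I subunits.

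**Figure D3:**
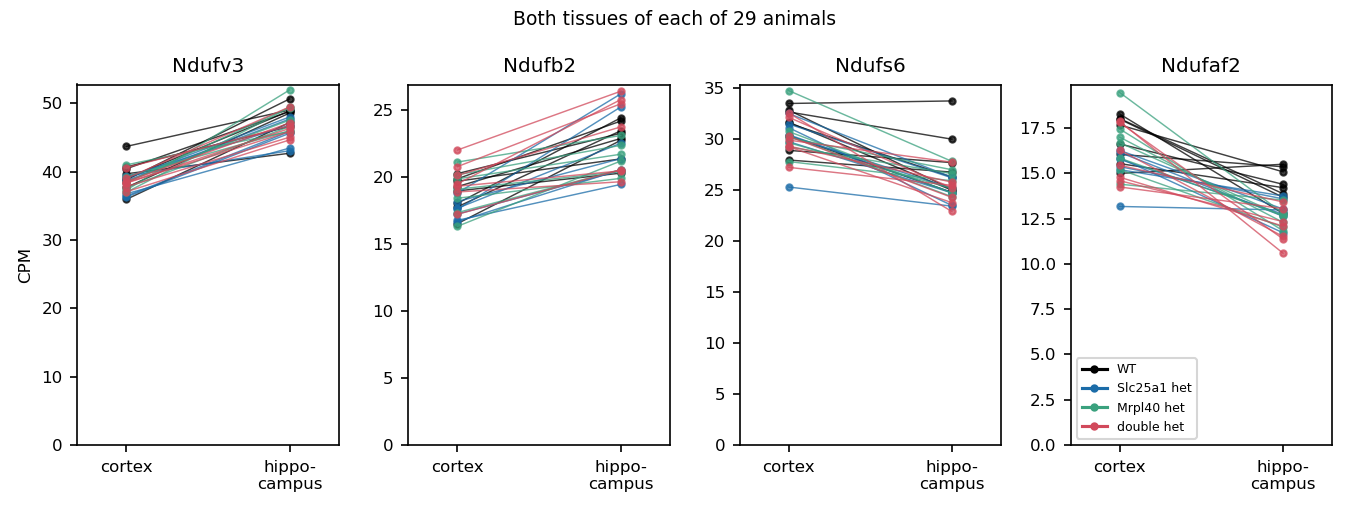
CPM of Ndufv3, Ndufb2, Ndufs6 and Ndufaf2 in cortex and hippocampus, each line joining both libraries of 1 of 29 animals and coloured by labelled genotype, on axes that start at zero. Ndufv3 and Ndufb2 rise in all 29 animals, and Ndufs6 and Ndufaf2 fall in 28 of 29.

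In wild-type animals alone, with fewer pairs, 15 of 38 subunits were called (5 higher, 10 lower) and 4 of 8 assembly factors, all lower, beside 60.6% of all genes tested (30.4% higher, 30.1% lower). The subunit median was -0.0077 (22 of 38 below 0), and it was -0.015 without the 6 animals, -0.013 without the 4 libraries and 0.0081 with the length and GC trends removed. The differences of Ndufv3 (0.28), Ndufb2 (0.28), Ndufs6 (-0.19) and Ndufaf2 (-0.23) had the same signs as in the mean of the 4 genotypes, of which wild type is a part. Most tissue differences of complex I genes were small in size. When the test asked for a fold of at least 1.2 in the mean of the 4 genotypes, Ndufaf2 was the 1 member called, against 40.4% of all genes.

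The genotypes were then compared within each tissue, the question being whether loss of 1 copy of either mitochondrial gene, or of both, goes with altered complex I transcripts. The comparisons with wild type share the wild-type libraries, so their values are given side by side and do not support one another. No member passed the edgeR test in any of the 12 comparisons of genotypes (6 against wild type, 4 against a single het and 2 interactions), nor in the 3 tests of whether a genotype's difference from wild type differed between tissues. Few genes of any kind did, and in cortex 0, 0.0294 and 0.0686% of 20394 genes were called for the Slc25a1, Mrpl40 and double hets against wild type, and in hippocampus 0, 0.00496 and 0.00992% of 20162. By direction, the cortex calls were 0.0245% higher and 0.0049% lower for Mrpl40 het and 0.0196% higher and 0.049% lower for double het, and the hippocampus calls were all higher. In the direct comparisons, double het against Slc25a1 het called 0.0588% of genes in cortex (0.0245% higher, 0.0343% lower) and 0 in hippocampus, and double het against Mrpl40 het 0.0049% and 0. The tests of interaction, double het minus both single effects, called no gene in either tissue.

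Summed over the 38 subunits, the groups overlapped in both tissues. In cortex the sum was 2044 to 2200 CPM in wild type (median 2143), 1984 to 2249 in Slc25a1 het (median 2128), 2032 to 2304 in Mrpl40 het (median 2086) and 2048 to 2254 in double het (median 2127). In hippocampus it was 2043 to 2299 CPM in wild type (median 2081), 1940 to 2052 in Slc25a1 het (median 1990), 2015 to 2297 in Mrpl40 het (median 2115) and 1947 to 2191 in double het (median 2020). Here the Slc25a1 het libraries met the wild-type range only at its lower edge. The 8 assembly factors summed to 161 to 183 CPM in wild-type cortex and 154 to 175 CPM in wild-type hippocampus. Slc25a1 het hippocampus stood at 149 to 160 CPM, within or just below that range.

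**Figure D4:**
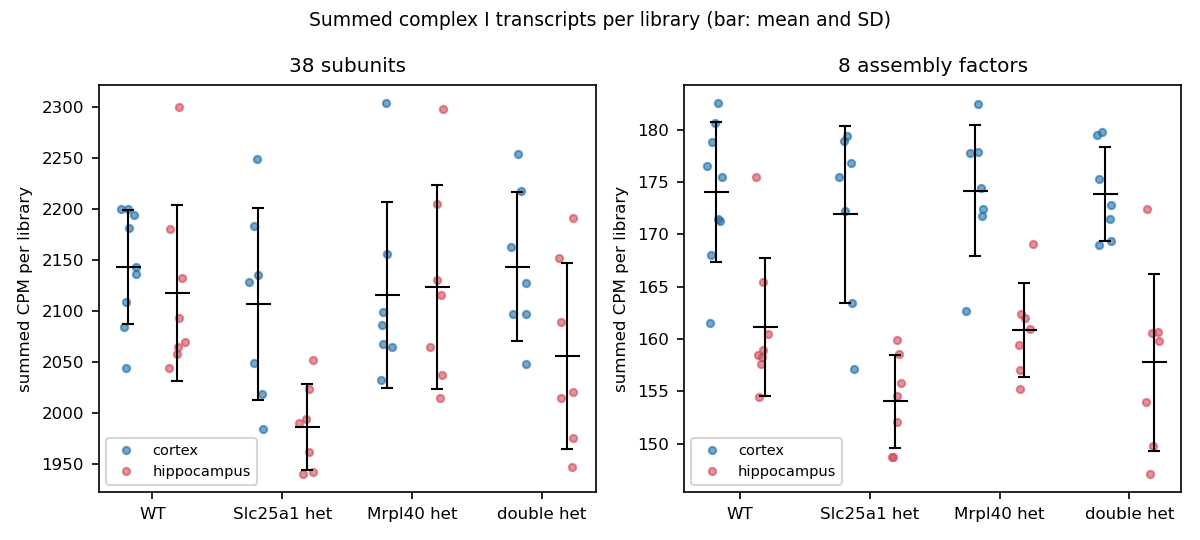
Summed CPM of the 38 subunits (left) and the 8 assembly factors (right) in each library, by labelled genotype and tissue, with the mean and SD as bars; the axes do not start at zero. Slc25a1 het hippocampus libraries lie between 1940 and 2052 CPM for the subunits, at or below the lower edge of the wild-type range of 2043 to 2299.

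In hippocampus of libraries labelled Slc25a1 het, 37 of 38 subunits and 7 of 8 assembly factors had values below wild type, none past the test. The median log2 difference was -0.085 over subunits and -0.072 over assembly factors, beside 0.00446 over all genes, of which 48.1% were below 0. At an unadjusted p under 0.05 there were 12 subunits (31.6%) and 3 assembly factors, beside 7.77% of all genes, and DESeq2 called none. Ndufb6, a membrane arm subunit, had 22.1 to 29.8 CPM in wild type (median 25.3) and 19.4 to 23.4 CPM in Slc25a1 het (median 21.4). The ranges overlapped, and the difference was -0.26 ± 0.063 (SE, adjusted p = 0.359, edgeR). Ndufb10 had 89.6 to 108 CPM in wild type (median 94.2) and 81.5 to 90.5 CPM in Slc25a1 het (median 86.6), with ranges that met at the edge and a difference of -0.14 ± 0.036 (adjusted p = 0.402, edgeR). Ndufa8, which has its cysteine motifs in the intermembrane space, was at -0.15 ± 0.047, Ndufaf5 at -0.17 ± 0.054 and Ndufaf3 at -0.13 ± 0.046 (adjusted p = 0.5, 0.5 and 0.515, edgeR). For Ndufaf3 the groups lay edge to edge, with 19.4 to 23.3 CPM in wild type and 18.1 to 19.3 CPM in Slc25a1 het. How many of all genes part in this way was not counted. The 95% intervals of the 38 subunits reached from -0.54 to 0.20.

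Other measures moved with these libraries. Nuclear subunits of complexes II to V were below wild type in 42 of 44 cases, with a median of -0.072. Neuron markers summed to 4139 to 4866 CPM in Slc25a1 het hippocampus and 4774 to 5565 CPM in wild type, and 5 of the 6 were below wild type, with none called and none at 0. Astrocyte markers summed to 2246 to 3049 CPM and 2176 to 2689 CPM, all 6 above wild type and none called or at 0. Wild type replicate 6, which is among the 6 animals at odds with their Slc25a1 label, had the highest subunit sum (2299 CPM) and the lowest slope of expression on transcript length (-0.045 log2 units per doubling). The part of markers and length in the difference was not tested. The subunit median was -0.083 without the 6 animals (37 of 38 below), -0.11 without the 4 libraries that stand apart in markers (37 of 38 below) and -0.062 with the length and GC trends removed (36 of 38 below).

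In cortex of libraries labelled Slc25a1 het, 32 of 38 subunits and 5 of 8 assembly factors lay below wild type, with medians of -0.042 and -0.018. Over all genes the median was -0.00043. Without the 6 animals the subunit median was -0.054 (33 of 38 below). With the length and GC trends removed it was -0.029 (28 of 38 below). At an unadjusted p under 0.05 were 6 subunits (15.8%) and 1 assembly factor, beside 3.17% of all genes, and DESeq2 called none. Ndufa5, an accessory subunit of the matrix arm, had 38.5 to 44.2 CPM in wild type (median 41.0) and 34.8 to 39.4 CPM in Slc25a1 het (median 37.3), with overlap, and a difference of -0.14 ± 0.041 (adjusted p = 1, edgeR). Ndufa13 was at -0.11 ± 0.033 and Ndufa3, a small membrane arm subunit, at -0.11 ± 0.036. Among assembly factors, Ndufaf2 was at -0.15 ± 0.060 and Ndufaf5 at -0.080 ± 0.045.

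In cortex of Mrpl40 het, 27 of 38 subunits and 6 of 8 assembly factors lay below wild type, with medians of -0.026 and -0.014, and 6 subunits (15.8%) and 0 assembly factors had an unadjusted p under 0.05, beside 6.94% of all genes. Ndufa13 had 73.1 to 84.4 CPM in wild type (median 75.8) and 65.4 to 75.1 CPM in Mrpl40 het (median 69.8). The groups overlapped at their edges, the difference was -0.14 ± 0.033 (adjusted p = 0.177, edgeR), and the DESeq2 Wald test called it (-0.13, adjusted p = 0.0422). That test called 0.12% of the 19207 genes to which it gave an adjusted p, out of 20394 tested. Ndufa7 stood at -0.15 ± 0.043 (adjusted p = 0.354, edgeR) and Ndufb7 at -0.10 ± 0.034. Among assembly factors the smallest p belonged to Ndufaf4 (0.056 ± 0.046) and Ndufaf6 (-0.075 ± 0.079). With the length and GC trends removed the subunit median was 0.0032, with 18 of 38 below 0, and without the 6 animals it was -0.017 (26 of 38 below).

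In cortex of double het, 26 of 38 subunits and 5 of 8 assembly factors lay below wild type, with medians of -0.020 and -0.016, and 8 subunits (21.1%) and 1 assembly factor had an unadjusted p under 0.05, beside 10.9% of all genes. Ndufb7 had 46.3 to 52.4 CPM in wild type (median 47.9) and 42.2 to 46.3 CPM in double het (median 44.2). The highest double het library fell just short of the lowest wild-type library, and how many of all genes part in this way was not counted. The difference was -0.13 ± 0.035 (adjusted p = 0.115, edgeR), and DESeq2 called it (-0.13, adjusted p = 0.0384). Ndufa13, with 67.4 to 75.4 CPM in double het, was at -0.12 ± 0.033 (adjusted p = 0.115, edgeR) and was called by DESeq2 too (-0.12, adjusted p = 0.0396). Here DESeq2 called 1.04% of the 10114 genes to which it gave an adjusted p, out of 20394 tested. Ndufa3 was at -0.11 ± 0.036, Ndufaf3 at -0.10 ± 0.043 and Ndufaf2 at -0.11 ± 0.061. Without the 6 animals the subunit median was -0.022, with 21 of 38 below 0. With the length and GC trends removed, the subunit median turned from -0.020 to 0.020, and Ndufa13 shrank to -0.048. Ndufa13 shares 30% of its exonic bases with Tssk6 on the opposite strand, which had a mean of 11 counts.

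In hippocampus of Mrpl40 het, 23 of 38 subunits and 5 of 8 assembly factors lay below wild type, with medians of -0.020 and -0.017. The subunit median was -0.045 without the 4 libraries that stand apart in markers (32 of 38 below), -0.0033 without the 6 animals (20 of 38 below) and -0.00096 with the length and GC trends removed (19 of 38 below). At an unadjusted p under 0.05 were 1 subunit (2.63%) and 1 assembly factor, beside 8.19% of all genes, and DESeq2 called no member. The assembly factor was Ndufaf2, with 12.8 to 15.5 CPM in wild type (median 14.3) and 11.8 to 13.5 CPM in Mrpl40 het (median 12.6). The groups overlapped, with a difference of -0.20 ± 0.053 (adjusted p = 0.531, edgeR). The subunit was Ndufb10 at -0.11 ± 0.036. Ndufv1 stood at 0.076 ± 0.038, Ndufa2 at -0.097 ± 0.050 and Ndufaf1 at 0.066 ± 0.063.

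In hippocampus of double het, 33 of 38 subunits and 6 of 8 assembly factors lay below wild type, with medians of -0.046 and -0.036, and 8 subunits (21.1%) and 1 assembly factor had an unadjusted p under 0.05, beside 5.28% of all genes. With the length and GC trends removed the subunit median was -0.024 (31 of 38 below). It was -0.060 without the 6 animals (31 of 38 below) and -0.064 without the 4 libraries that stand apart in markers (34 of 38 below). Ndufaf2 was again the assembly factor, with 10.6 to 13.4 CPM in double het (median 12.1), which overlapped wild type. Its difference was -0.26 ± 0.054 (adjusted p = 0.147, edgeR), and DESeq2 called it (-0.26, adjusted p = 0.0146). Here DESeq2 called 0.08% of the 9999 genes to which it gave an adjusted p, out of 20162 tested. Ndufs5, a membrane arm subunit on the intermembrane space side, was at -0.16 ± 0.047 (adjusted p = 0.7, edgeR), Ndufa2 at -0.15 ± 0.051 and Ndufb10 at -0.11 ± 0.036. Ndufs4 was at -0.097 ± 0.042 (adjusted p = 0.906, edgeR), with 45.6 to 51.6 CPM in double het and 47.7 to 58.9 CPM in wild type. The wild-type value of 58.9 was replicate 6, among the 6 animals at odds with their Slc25a1 label, and the nearest value was 52.2. Ndufa4 and Ndufa4l2 had differences of -0.043 ± 0.051 and -0.069 ± 0.15.

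**Figure D5:**
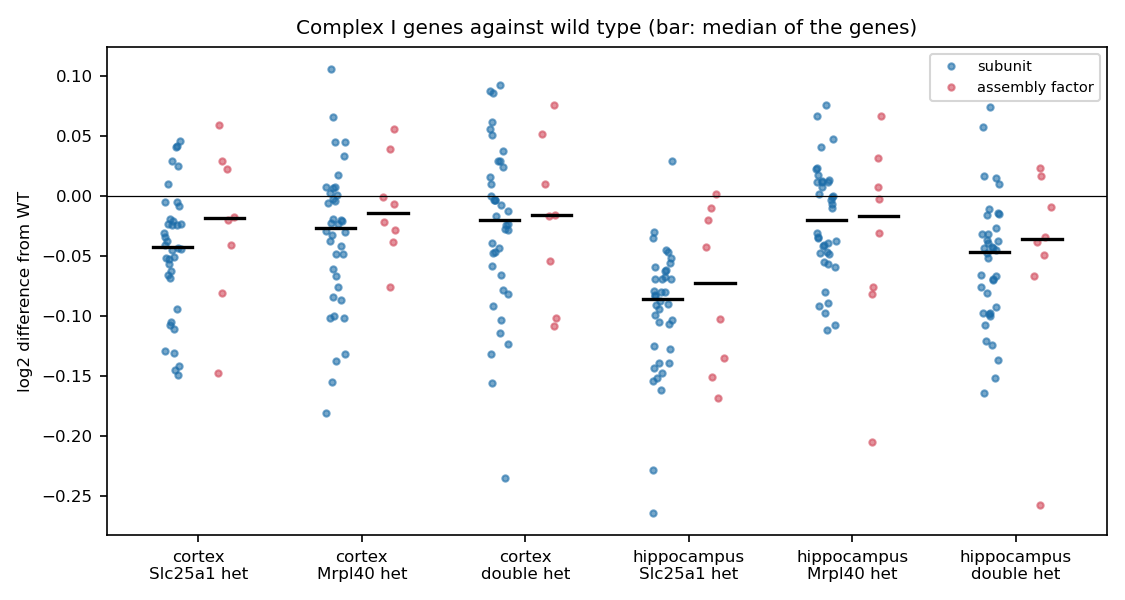
Log2 difference from wild type of each subunit (left cloud) and assembly factor (right cloud) for the 3 heterozygous genotypes in cortex and hippocampus, with the median of each cloud as a bar. The subunit median is lowest in Slc25a1 het hippocampus at -0.085 and lies between -0.046 and -0.020 in the other 5 comparisons; no point passed the edgeR test.

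Double het was also set directly against the single genotypes. In cortex the subunit median was 0.020 against Slc25a1 het (15 of 38 below) and 0.015 against Mrpl40 het (17 of 38 below). In hippocampus it was 0.047 against Slc25a1 het (6 of 38 below) and -0.045 against Mrpl40 het (31 of 38 below). Against Slc25a1 het in cortex the median was 0.041 without the 6 animals (8 of 38 below) and 0.035 with the length and GC trends removed (6 of 38 below). Against Mrpl40 het in hippocampus it was -0.023 without the 4 libraries (26 of 38 below). At an unadjusted p under 0.05 were 2 of 38 and 1 of 38 subunits in cortex and 4 of 38 and 3 of 38 in hippocampus. The shares over all genes were 9.92%, 6.94%, 9.04% and 4.68%. So were 2 assembly factors, Ndufaf3 and Ndufaf5, in hippocampus against Slc25a1 het (0.13 ± 0.047 and 0.12 ± 0.055). DESeq2 called no member. The interaction had a subunit median of 0.056 in cortex (29 of 38 above 0) and 0.053 in hippocampus (32 of 38 above 0), with none past the test. The hippocampus median was 0.023 without the 6 animals (14 of 38 below 0), 0.031 with the length and GC trends removed (9 of 38 below) and 0.087 without the 4 libraries (1 of 38 below). The numbers of subunits at an unadjusted p under 0.05 were 6 of 38 in cortex and 1 of 38 in hippocampus, beside 5.35% and 3.39% of all genes, and DESeq2 called no member. Since wild type enters the interaction and each difference from wild type, the direction of these medians is tied to that of the differences given above.

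Whether a genotype's difference from wild type was larger in hippocampus than in cortex was tested within animals. For Slc25a1 het the subunit median of this difference of differences was -0.054 (31 of 38 below 0), for Mrpl40 het 0.018 (12 of 38 below) and for double het -0.052 (27 of 38 below). The Mrpl40 het median turned to -0.0024 (20 of 38 below) without the 4 libraries. With the length and GC trends removed it was 0.012, and the Slc25a1 het median was -0.036 (28 of 38 below). No member was called, beside 0, 0 and 0.0234% of all genes (0.0187% higher, 0.00468% lower). Unadjusted p under 0.05 was reached by 6 of 38, 1 of 38 and 3 of 38 subunits and by 0 assembly factors in each. The shares over all genes were 6%, 5.83% and 5.03%, and DESeq2 called no member. Ndufb6 had the lowest value for Slc25a1 het, -0.25, and the smallest adjusted p among subunits there was 0.816 (edgeR). A difference of the Slc25a1 het values between tissues was not shown.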

How the data were processed

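Raw counts per gene were used as the authors deposited them; per the submitters' processing notes, FastQC, HISAT2, featureCounts and DESeq2 and the build mm39 (GRCm39) were involved, with no roles or versions named. Per the labels' protocols, poly(A) RNA went into directional libraries. Counts were tested with edgeR 4.0.16 (R 4.3.3) by quasi-likelihood with TMM scaling, its filter on low counts and Benjamini-Hochberg adjustment over all genes tested at a false discovery rate of 0.05. The 4 genotypes of a tissue were fitted together; tissues were compared within 29 animals with the animal as a block, since both libraries of a pair come from 1 animal (median correlation of deviations 0.109 within animals and -0.00987 between animals). CPM use TMM-scaled library sizes over all libraries. Lengths, GC content, overlaps and copies (blastn 2.17.0, at least 95% identity over 200 bases) came from GENCODE mouse release 21, on GRCm38, with entries for 97.3% (cortex) and 97.4% (hippocampus) of the genes tested. Alternatives were no filter, DESeq2 1.42.0 size factors and Wald test, a minimum fold of 1.2, other blocks, and only the genotypes compared. After seeing the data, fits without 6 animals, without 4 libraries, with length and GC trends as offsets, and with copies added were included. Replicates differed beyond sampling noise in every group (chi-square per degree of freedom of at least 3.49), so none was counted as a duplicate. The members and lists were chosen with earlier results of these data known. Genes named are all members past the test. With fewer than 4 in a comparison with wild type, they are the 3 subunits and 2 assembly factors of smallest p. For tissue they are the 6 largest rises and falls among subunits and the 3 largest among assembly factors. For levels they are the 3 highest and 3 lowest subunits and all assembly factors. Ndufa4, Ndufa4l2, Ndufs4, Slc25a1 and Mrpl40 were also listed to be named. Among genotype comparisons, Ndufa4, Ndufa4l2 and Ndufs4 are given only for double het hippocampus. Other members named were chosen after their values were seen. The values of 1 subunit and of 1 marker list are not reported here. Scripts were tested on simulated data.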

Additional observations from a re-analysis of the deposited data

Results flagged for a closer look

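In 12 of 160 groups of libraries tested, 1 library stood far from the others of its group in CPM of a member; chance flags about 1 group in 20. No explanation was tested. For Ndufb7 in cortex the library was wild type replicate 9 (52.4, nearest 49.3), Slc25a1 het replicate 5 (41.7, nearest 46.2) and Mrpl40 het replicate 2 (49.8, nearest 45.0). Ndufs6 in cortex had Slc25a1 het replicate 1 at 25.3 (nearest 29.7) and Mrpl40 het replicate 2 at 34.7 (nearest 30.7). Ndufb5 had Slc25a1 het replicate 6 at 52.6 in cortex (nearest 55.8) and Mrpl40 het replicate 5 at 59.2 in hippocampus (nearest 54.0). In cortex, Ndufaf2 stood at 13.2 in Slc25a1 het replicate 5 (nearest 15.2), Ndufb8 at 6.12 in wild type replicate 7 (nearest 5.30) and Ndufc2 at 46.8 in wild type replicate 5 (nearest 51.8). In hippocampus, Ndufa4 stood at 146 in wild type replicate 3 (nearest 135) and Ndufs4 at 58.9 in wild type replicate 6 (nearest 52.2).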

How the results depend on the processing

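Of the 32 members called between tissues in the mean of the 4 genotypes, 26 kept their call and direction with no filter on low counts, 32 with DESeq2 size factors, 31 in the DESeq2 Wald test, 27 without the 6 animals, 29 without the 4 libraries, 19 with length and GC offsets and 32 with copies added. Asking for a fold of at least 1.2 left 1 of these 32 calls and 0 of the 19 in wild type alone, and no filter left 12 of those 19. The fold setting uses a stricter null. The fit with no filter tests more genes and also estimates the scaling and the spread anew. Which of these changes removed the calls was not tested. With offsets, 3 of the 32 changed sign and 1 of them, Ndufa13, was called in the opposite direction. Without the animal block (no replicate block) 29 of 32 and 17 of 19 remained called. Between genotypes, the DESeq2 Wald test called 1 member in cortex of Mrpl40 het, 2 in cortex of double het and 1 in hippocampus of double het, where edgeR called 0; the cause was not tested. With the replicate block, 0 members were called in the 12 genotype comparisons. The labels tie replicate numbers across genotypes to no shared animal, litter or day, and not every pair of the same number was positively correlated, so the block is no paired design. The median correlation of deviations was 0.0863 over 81 pairs of the same number (from -0.478 to 0.537) and -0.00521 over 570 pairs of different numbers. The block moved the subunit median of Mrpl40 het hippocampus from -0.020 to -0.036. Leaving out single replicates was not run, since no group had 5 or fewer libraries. Over the 6 comparisons with wild type, the lowest and highest bounds of the 95% intervals of single subunits were -0.54 and 0.32. These bounds can come from different subunits and include their estimates, so they are no detection limit, and none was computed.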
